A study of Homo sapiens with 60 samples.

Results

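The step from day 9 to day 12 of differentiation was examined in SH-SY5Y cells kept in 10 µM lead (Pb), as the 3 libraries of day 12 against the 3 libraries of day 9, so 6 of the 60 libraries of the series. They were chosen by the day and dose in the sample titles, with no measured value in the choice. SH-SY5Y is an established human neuroblastoma cell line, labelled wild type. All dishes held this 1 line, plated at passage 39 with 1 dish of 15 cm per replicate and differentiated by a published protocol whose media the labels do not list. Pb was given from day 5 of the 18-day protocol and renewed with the medium. The other doses were 0, 0.16 and 1.26 µM, and the collections were at days 6, 9, 12, 15 and 18 with 3 dishes per group. The same step without Pb, in another 6 libraries, served as the control, and the difference of the 2 steps was tested for each gene.

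SH-SY5Y cells descend from the sympathoadrenal lineage of the neural crest and carry its noradrenergic programme, in which the transcription factors PHOX2A, HAND2, GATA3 and ISL1 are expressed and dopamine beta-hydroxylase (DBH) makes noradrenaline. Neuroblastoma lines also hold a substrate-adherent or S-type state, in which genes of mesenchymal cells, of cell adhesion and of the YAP and SRF pathways of the actin cytoskeleton are active. When such cells differentiate they leave the cell cycle and build neurites and secretory granules, which draws on the endoplasmic reticulum (ER), where secreted proteins fold, and on the synthesis of membrane lipids. Pb is a neurotoxic metal that can take the place of calcium and zinc in proteins.

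The 6 libraries held 20280235 to 50539599 reads assigned to genes and the 6 control libraries 16616593 to 35184303. Levels are reads per 1000000 reads assigned to genes (CPM), and 3 reads stood for 0.0594 to 0.148 CPM in the 6 libraries with Pb. The noradrenergic markers were present throughout: with Pb HAND2 stood at 334, 344 and 348 CPM at day 9 and at 352, 359.7 and 349 CPM at day 12. PHOX2A spread widely between dishes, at 955, 1329.9 and 582 CPM at day 9 and 977, 1493 and 652 CPM at day 12, and was not called changed. TH, the enzyme that makes the catecholamine precursor L-DOPA, was near the floor at day 9 (0.498, 0.723 and 0.70 CPM). Defining markers of other cell types were at or near 0 in these 6 libraries: SOX10 of Schwann cells and CDH1 of epithelia stayed under 0.1 CPM, and PTPRC and HBB of blood cells had no read. Of 14 Schwann and glial markers 5 were kept, with a summed level of 17.0 to 17.2 CPM at day 9 and 35.8 to 37.5 CPM at day 12, and 3 of them rose (NGFR, ERBB3 and S100B). Of 14 epithelial and blood markers 4 were kept (summed level 26.4 to 31.8 CPM at day 9 and 38.5 to 44.3 CPM at day 12), and EPCAM and KRT10 were called higher. The EPCAM call ended without replicate 2 of day 12, and the KRT10 call without any 1 of 3 libraries (replicates 2 and 3 of day 9, replicate 2 of day 12). Their part in any result was not tested. In RNA from whole dishes, fewer cells of a type and less RNA of a gene per cell cannot be told apart.

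Most of the transcriptome moved between day 9 and day 12 in the presence of Pb. Of 15263 genes kept (at least 1 CPM in at least 3 of the 60 libraries), 8403 passed limma's test at a Benjamini-Hochberg adjusted p under 0.05 (55.1%), 3347 higher (21.9%) and 5056 lower (33.1%) at day 12. A gene is called changed here when it passed that test. In 9761 genes (64.0%) the 3 libraries of day 12 did not overlap those of day 9. A change of at least 1 on the log2(CPM + 1) scale was seen in 653 called rises and 592 called falls. The balance of rises and falls depends on the scaling between libraries, since the median change of all genes was -0.09 on the log2 scale. After a median-ratio rescaling, which brings it to 0.003, 4213 genes were higher and 3828 lower, with 4102 and 4063 in edgeR on the recovered reads. Percentages of rises and falls below are on the CPM scale, and single changes of 0.1 or less on the log2 scale should be read against that shift. Counts of list members called in this step are to be read beside the shares of all genes, 55.1% called, 21.9% higher and 33.1% lower.

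A closely similar step was seen without Pb. There 8303 genes were called (54.4%), 3167 higher (20.7%) and 5136 lower (33.7%), and 81.3% of the genes called with Pb were called in the same direction without it, 2652 higher and 4176 lower. Across the 15263 genes the 2 sets of log2 changes, which share no library, had a Pearson r of 0.930 and a Spearman rho of 0.891. The slope was 0.940 for the change with Pb on the change without and 0.920 for the reverse (genes are not independent replicates). Both slopes are below 1, so neither measures a weaker step at 1 of the doses. Genes called in 1 step alone numbered 691 higher and 878 lower with Pb, and 513 higher and 956 lower without, but being called in 1 step and not in the other is no test of a difference. The difference itself, the change with Pb minus the change without, passed the test in 101 genes (0.662%), 64 more positive (0.419%) and 37 more negative (0.242%) with Pb. An unadjusted p under 0.05, in either direction, was seen in 1397 of the 15263 genes, the background for list counts at that level below. Without replicate 1 of day 9 with Pb 67 genes were called, and 93 genes, 47 positive and 46 negative, when the 12 libraries were fitted alone. For 8086 of the 8403 genes called with Pb (96.2%) the 95% interval of the difference lay within 1 log2 unit on either side of 0, and for 4954 (59.0%) within 0.5. For the 1245 genes with a called change of at least 1 these numbers were 1132 (90.9%) and 435 (34.9%). Each replicate is 1 dish, and since all dishes hold 1 line at 1 passage the p-values measure the spread between dishes alone.

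**Figure D1:**
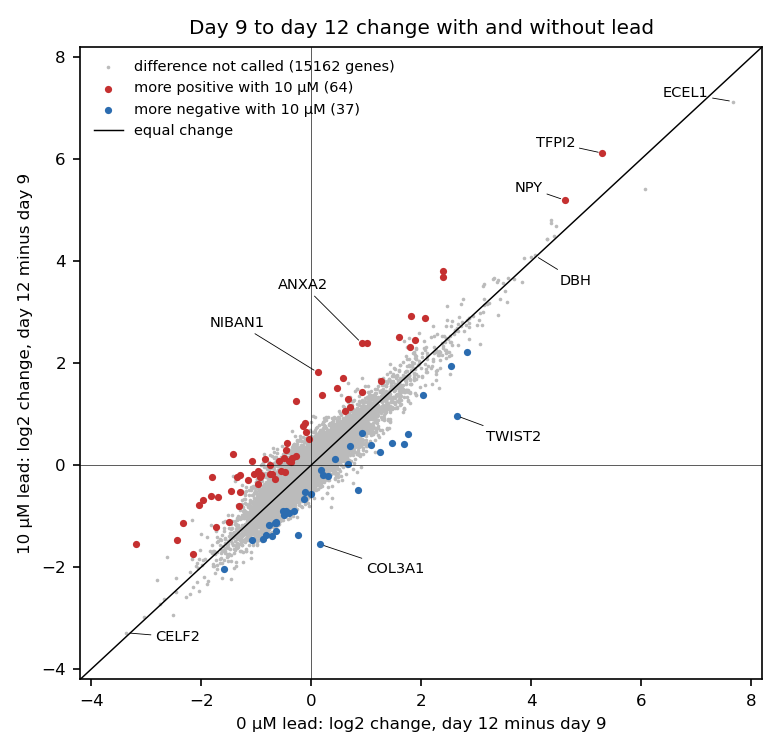
Change from day 9 to day 12 on the log2(CPM + 1) scale for the 15263 genes kept, without Pb on the x axis and with 10 µM Pb on the y axis, with the line of equal change. Most genes lie along the line, and the 101 genes with a called difference are coloured, 64 above it and 37 below it.

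The genes of the unfolded protein response, which raises folding capacity when the ER is loaded, rose together in the presence of Pb. All 22 members were called higher, beside 21.9% of all genes, with a median log2 change of 1.70 beside -0.09 for all genes, and the same 22 were called higher without Pb (median 1.61). HSPA5 (chromosome 9, 125234853 to 125241343 in the RefSeq annotation of GRCh38.p14, the source of all gene positions here), the main ER chaperone BiP, stood at 296, 295 and 313 CPM at day 9 and at 1913, 1824 and 1887 CPM at day 12 with Pb. The mean at day 12 was 6.22 times that at day 9. The 2 days were far apart, and the control libraries went from 331, 325 and 319 to 2025, 1975 and 2006 CPM. The log2 changes were 2.63 ± 0.047 (SE, adjusted p = 9.02e-41) with Pb and 2.62 ± 0.047 without, and the 95% interval of their difference ran from -0.12 to 0.15. SDF2L1, a cofactor of HSPA5, had the largest change of the list, from 30.3, 28.4 and 32.6 to 382, 372 and 379 CPM (log2 change 3.59 ± 0.082, adjusted p = 4.91e-36). The disulfide isomerase PDIA4 changed by 2.47 ± 0.046 and the co-chaperone DNAJB11 by 2.56 ± 0.055, to 5.55 and 5.98 times their day 9 mean. None of the 22 members was called in the difference of the steps by limma or edgeR, where the median was 0.08. An unadjusted p under 0.05 was seen in 4, all positive, beside 1397 of 15263 genes in either direction.

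The ER stress response element, to which ATF6 and NF-Y bind, is CCAAT followed, after 9 bases of any kind, by CCACG, and was searched on both strands in the 250 bases before the RefSeq start of each gene (GRCh38.p14). It was found for 7 of the 21 list members with a promoter entry (33.3%; HSPA5, HSP90B1, CALR, CANX, PDIA6, CRELD2 and XBP1) and for 0.0916% of 27305 genes. 4 of the 7 are printed as windows of 60 bases, 5′ to 3′ in the direction of the gene, as examples of the match. Capitals mark the match, in either orientation.
HSPA5 (chr9:125241371-125241430, minus strand): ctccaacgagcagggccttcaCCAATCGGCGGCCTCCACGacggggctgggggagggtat
XBP1 (chr22:28800583-28800642, minus strand): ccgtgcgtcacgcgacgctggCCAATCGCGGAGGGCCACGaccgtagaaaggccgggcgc
CALR (chr19:12938363-12938422, plus strand): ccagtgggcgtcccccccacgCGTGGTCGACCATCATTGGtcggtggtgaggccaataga
PDIA6 (chr2:10812833-10812892, minus strand): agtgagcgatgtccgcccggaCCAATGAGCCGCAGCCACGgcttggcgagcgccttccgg

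A match is a description of the letters and not of binding. The 7 members with a match had a median log2 change of 1.47 with Pb (0.73 to 3.25) and those without a match one of 1.84 (0.51 to 3.59), and the ranges overlap.

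Genes of cholesterol and fatty acid synthesis rose as well. With Pb 30 of 31 members were called higher and none lower, with a median log2 change of 1.36, and without Pb all 31 were called higher (median 1.49). MVD, which makes isopentenyl diphosphate, went from 31.6, 33.3 and 34.4 to 275, 286 and 257 CPM with Pb (log2 change 3.00 ± 0.073, adjusted p = 3.98e-35), with no overlap. It went from 29.2, 28.1 and 32.3 to 298, 254 and 249 CPM without. DHCR7, the enzyme that yields cholesterol itself, changed by 2.21 ± 0.056 with Pb and by 2.47 ± 0.056 without, and the interval of the difference was -0.42 to -0.10 (adjusted p = 0.129). FDFT1, squalene synthase, and the sterol demethylase MSMO1 changed by 1.75 ± 0.049 and 2.16 ± 0.071. ABCA1, which carries cholesterol out of cells, was among the largest falls, from 10.9, 10.7 and 8.67 to 0.970, 0.641 and 0.961 CPM (log2 change -2.58 ± 0.14). No member of the list was called in the difference of the steps by limma or edgeR. An unadjusted p under 0.05 was seen in 5, all negative, beside 1397 of 15263 genes in either direction.

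The largest rises with Pb included secreted proteins, a neuropeptide and the enzyme that makes noradrenaline. ECEL1 (chromosome 2, 232479827 to 232487834), a membrane peptidase found in neurons, stood at 6.93, 6.68 and 5.77 CPM at day 9 and at 1025, 1365 and 804 CPM at day 12, a log2 change of 7.13 ± 0.26 (adjusted p = 3.64e-28). Its dishes differed among themselves, and the difference from the control step (-0.55 ± 0.36) was not called (adjusted p = 0.706). DBH (chromosome 9, 133636363 to 133659329) rose from 387, 371 and 397 to 6696, 6516 and 6798 CPM with Pb (log2 change 4.11 ± 0.065). Without Pb it rose from 454, 444 and 432 to 7919, 7364 and 7076 CPM. The interval of the DBH difference was -0.14 to 0.23. TFPI2 (chromosome 7, 93885396 to 93890753), an inhibitor of serine proteases, rose from 16.5, 17.3 and 17.8 to 1275, 1196 and 1316 CPM with Pb and from 24.3, 29.9 and 22.9 to 1014, 984 and 1127 CPM without. Here the rise was larger with Pb: it began lower and ended higher, 73.5 against 40.6 times the day 9 mean, with a difference of 0.82 ± 0.11 on the log2 scale (adjusted p = 2.73e-06). CGA, the alpha subunit of glycoprotein hormones, was at 0.230, 0.0289 and 0.233 CPM at day 9 and 31.3, 32.2 and 31.2 CPM at day 12. Growth factor IGF2 went from 70.5, 110.5 and 57.3 to 1746, 1939 and 1559 CPM, and the cyclic nucleotide phosphodiesterase PDE10A from 8.30, 12.0 and 10.2 to 238, 241 and 238 CPM. The poly(A) polymerase family member TENT5A, the inositol trisphosphate kinase ITPKB and the serine protease PRSS56 changed by 4.74 ± 0.10, 4.69 ± 0.20 and 5.41 ± 0.19. Of these 10 largest rises, TFPI2 and the neuropeptide NPY, described below, were called in the difference of the steps.

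The largest falls with Pb included genes of RNA processing, cell adhesion and axon guidance. CELF2, an RNA-binding protein that regulates splicing, went from 11.3, 13.0 and 14.3 to 0.416, 0.641 and 0.208 CPM (log2 change -3.29 ± 0.18, adjusted p = 6.21e-21). The control libraries went from 12.8, 13.7 and 12.0 to 0.309, 0.617 and 0.120 CPM. The receptor tyrosine kinase KIT went from 7.31, 6.51 and 7.07 to 0.237, 0.0493 and 0.338 CPM, and replicate 2 of day 12 lay below the level of 3 reads. In both genes the days did not overlap, with or without Pb. CLSTN2, a calsyntenin of the postsynaptic membrane, went from 167, 172 and 141 to 20.4, 22.7 and 17.3 CPM. NTNG2, a netrin-like guidance protein, went from 66.2, 87.2 and 64.1 to 9.40, 13.5 and 9.97 CPM. TIMP3, an inhibitor of matrix metalloproteinases, changed by -2.39 ± 0.14, and the chromatin factor DPF3 by -2.98 ± 0.13. The remaining falls among the 10 largest were ABCA1, given above, ABCA12 (-2.50 ± 0.17), a lipid transporter, SLC44A5 (-2.53 ± 0.19) and ELMO1 (-2.47 ± 0.10), a regulator of Rac. None of the 10 was called in the difference of the steps by limma or edgeR (2 had an unadjusted p under 0.05), where their values ran from -0.42 (ELMO1 and CLSTN2) to 0.08 (CELF2).

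Neuropeptides and granins, the cargo of dense-core vesicles, rose for the most part. With Pb 14 of 20 members kept were called higher and 3 lower (median 0.71), against 12 and 4 without Pb (median 0.70). After rescaling the counts were 14 and 1 with Pb and 12 and 1 without, and in edgeR the medians were 1.42 with Pb and 1.68 without. NPY (chromosome 7, 24284190 to 24291862), a peptide released with noradrenaline, rose from 13.6, 11.8 and 14 to 477, 503 and 575 CPM with Pb and from 11.9, 13.0 and 15.2 to 352, 341 and 353 CPM without. At day 12 all 3 Pb libraries were above the controls, and the difference of the steps was 0.59 ± 0.13 (adjusted p = 0.0108). The call was lost in edgeR, in the fit of the 12 libraries alone, and without replicate 3 of day 9 at 0 µM, replicate 2 of day 9 or replicate 3 of day 12 at 10 µM (adjusted p 0.00507 to 0.0866 over 20 alternatives). VIP, vasoactive intestinal peptide, went from 32.7, 33.6 and 31.2 to 251, 236 and 254 CPM with Pb (log2 change 2.89 ± 0.094; 2.86 ± 0.094 without). The granule proteins CHGB and SCG2 changed by 2.15 ± 0.057 and 1.75 ± 0.047 with Pb and by 1.89 ± 0.057 and 1.95 ± 0.047 without. TAC1, the precursor of substance P, had no read in the 6 libraries of day 9, with or without Pb. At day 12 it stood at 1.70, 2.61 and 2.62 CPM with Pb and at 0.425, 0.524 and 0.520 CPM without, which is at least 20.1-fold and at least 2.71-fold above the level of 3 reads per library. The difference was called for TAC1 (adjusted p = 4.37e-07) in limma and not in edgeR (adjusted p 5.93e-09 to 1 over 19 alternatives).

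The cyclic AMP response element, to which CREB binds, has the letters TGACGTCA and reads the same on both strands. It was found in the 250-base window of 4 of 16 neuropeptide list members with a promoter entry (25.0%; CARTPT, VGF, CHGA and PCSK1) and of 2 of 18 immediate early and cAMP response genes (11.1%; CREM and DUSP1), beside 2.03% of all genes. The windows of CREM and CHGA are shown with the element in capitals.
CREM (chr10:35195826-35195885, plus strand): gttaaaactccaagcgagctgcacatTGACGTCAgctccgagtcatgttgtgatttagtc
CHGA (chr14:92923070-92923129, plus strand): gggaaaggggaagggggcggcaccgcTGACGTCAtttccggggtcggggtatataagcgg

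In the immediate early and cAMP response list 17 of 22 members kept were called higher and 3 lower (median 0.72, and 1.16 in edgeR). CREM, a cAMP-responsive transcription factor, rose from 40.5, 38.4 and 35.8 to 208, 202 and 212 CPM (log2 change 2.41 ± 0.075, adjusted p = 1.75e-30) and without Pb by 2.44 ± 0.075. DUSP1, the other member of this list with the element, changed by -1.16 with Pb. Members of this list with the element had a median of 0.63 and those without it one of 0.70 (-2.26 to 2.72). In the neuropeptide list the medians were 0.77 with the element (-0.13 to 2.95) and 0.57 without. In both lists the ranges overlap. The nuclear receptor NR4A3 went from 1.49, 1.53 and 1.17 to 14.2, 15.8 and 11.8 CPM, and EGR3, a zinc finger factor, from 0.191, 0.347 and 0.0667 to 6.05, 5.92 and 5.43 CPM. JUN, a subunit of AP-1, moved the other way, from 194, 213 and 207 to 43.2, 38.4 and 44.2 CPM with Pb. Without Pb it went from 237, 229 and 230.4 to 29.7, 32.2 and 35.2 CPM. FOSL1, also an AP-1 subunit, rose from 3.67, 2.69 and 2.33 to 9.79, 9.27 and 11.0 CPM with Pb. Its called difference from the control step (1.05 ± 0.27, adjusted p = 0.0489) was lost in 16 of 20 alternatives, 9 of which each leave out 1 of the 12 libraries.

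The noradrenergic list moved in both directions. With Pb 7 of 19 members kept were called higher and 8 lower, and without Pb the counts were 7 and 8. Beside DBH, TH went from 0.498, 0.723 and 0.70 to 17.9, 20.1 and 17.9 CPM. The decarboxylase DDC went from 37.5, 35.4 and 35.5 to 124, 120.5 and 126 CPM, and the vesicular monoamine transporter SLC18A1 from 29.7, 29.1 and 27.5 to 137, 140.0 and 144 CPM. In the controls TH reached 30.9, 24.3 and 23.5 CPM and DDC 131, 141 and 149.6 CPM at day 12. The differences of the steps, -0.25 ± 0.24 and -0.27 ± 0.12, were not called (adjusted p = 0.855 and 0.442). Of the transcription factors of the lineage, ISL1 went from 252, 252 and 247 to 155, 157 and 158 CPM and was called lower. GATA3 (-0.25 ± 0.065) was called lower on the CPM scale and not after rescaling or in edgeR, and HAND2 (0.05 ± 0.066) was not called.

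Genes of transmitter release and excitability moved by smaller amounts. Of the synaptic vesicle list 15 of 29 members kept were called higher and 4 lower (median 0.22, 0.16 without Pb; 0.37 with Pb in edgeR). The calcium sensor SYT1 went from 86.4, 89.1 and 95.3 to 159, 147 and 160.4 CPM (log2 change 0.78 ± 0.049). The vesicle protein SYP went from 74.0, 76.2 and 76.8 to 138, 149 and 142 CPM (0.91 ± 0.066). SYT5 and RAB3C, a small GTPase of vesicles, changed by 0.78 ± 0.078 and 0.74 ± 0.080, against 0.72 ± 0.078 and 0.73 ± 0.080 without Pb. Of the ion channel list 9 of 27 members kept were called higher and 3 lower (44.4% called, beside 55.1% of all genes). The sodium channel SCN9A (0.79 ± 0.064) and the potassium channels KCNT1 (1.65 ± 0.15) and KCNH6 (1.35 ± 0.13) rose. Of the cholinergic list 5 of 15 members kept were called higher and 1 lower (40% called, beside 55.1% of all genes). Without Pb the counts were 8 and 4 (80% called, beside 54.4%), and the lower count there was 0 after rescaling. None of the 15 was called in the difference of the steps by limma or edgeR, and 1 had an unadjusted p under 0.05. The nicotinic receptor subunit CHRNB4 went from 88.4, 89.2 and 90.0 to 245, 239.8 and 246 CPM. In the same list acetylcholinesterase, ACHE, and the cytokine receptor LIFR rose by 0.53 ± 0.066 and 0.66 ± 0.15, and the muscarinic receptor CHRM3 fell (-0.62 ± 0.15).

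The neuronal cytoskeleton and growth cone list held rises and falls, with 61.5% called, near the 55.1% of all genes. With Pb 7 of 26 members kept were called higher and 9 lower (after rescaling the counts were 9 higher and 8 lower, so the majority depends on the scaling). GAP43, a growth cone protein, rose from 123, 118 and 115 to 375, 377 and 399 CPM with Pb and from 108, 102 and 100.02 to 392, 385 and 391 CPM without. The beta-tubulin TUBB2A rose from 248, 232 and 247 to 668, 653 and 667 CPM. DCX, the microtubule protein of migrating neurons, fell from 186, 187 and 189 to 78.3, 78.6 and 85.3 CPM with Pb (-1.21 ± 0.056; -1.20 ± 0.056 without). STMN4, a tubulin-binding stathmin, fell from 354, 372 and 358 to 151, 153 and 153 CPM. The STMN4 fall was -1.58 ± 0.063 without Pb and -1.24 ± 0.063 with it, and the difference missed the threshold (adjusted p = 0.0564). Among neurotrophin and GDNF receptors 4 of 11 were higher and 4 lower. NGFR, the p75 neurotrophin receptor (1.06 ± 0.11), and GFRA3 (0.70 ± 0.13) rose, and GFRA1 (-1.80 ± 0.17) and NTRK2, the BDNF receptor TrkB (-0.75 ± 0.080), fell. NTRK2 stood at 474, 466 and 490.4 CPM at day 9 and 284, 277 and 287 CPM at day 12 with Pb.

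Of the retinoic acid response list 3 of 17 members kept were called higher and 8 lower, with a median of -0.14 (-0.21 without Pb; -0.04 with Pb after rescaling). CRABP1, which binds retinoic acid in the cytosol, rose from 19.7, 19.9 and 20.1 to 331, 340.0 and 379 CPM (log2 change 4.07 ± 0.079, adjusted p = 4.13e-39). STRA6, the receptor that takes up retinol, rose from 96.3, 98.5 and 99.9 to 441, 469 and 459.5 CPM. The receptor RARB, a direct target of retinoic acid, fell from 278, 251 and 266 to 121, 111 and 119 CPM (-1.17 ± 0.059; -1.07 ± 0.059 without Pb). TGM2, a transglutaminase induced by retinoic acid, fell further with Pb than without, from 162, 157 and 166 to 63.6, 64.8 and 68.7 CPM against 173, 154 and 156 to 110.4, 103 and 95.6 CPM. The TGM2 libraries of day 9 overlap between doses and those of day 12 do not, and the difference of the steps was -0.64 ± 0.085 (adjusted p = 2.73e-06), called in all 20 alternatives. In the BMP and TGF-beta list 4 of 18 members kept were called higher and 8 lower (66.7% called, beside 55.1% of all genes). The inhibitors of differentiation ID3, ID1 and ID2 fell, ID3 from 194, 212 and 225 to 54.3, 59.7 and 59.7 CPM with Pb (log2 change -1.84 ± 0.088). It went from 203, 172 and 198 to 42.8, 42.2 and 39.5 CPM without (-2.17 ± 0.088). ID1 changed by -1.66 ± 0.10 and ID2 by -1.45 ± 0.090, and the growth factor TGFB1 rose by 1.43 ± 0.090.

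**Figure D2:**
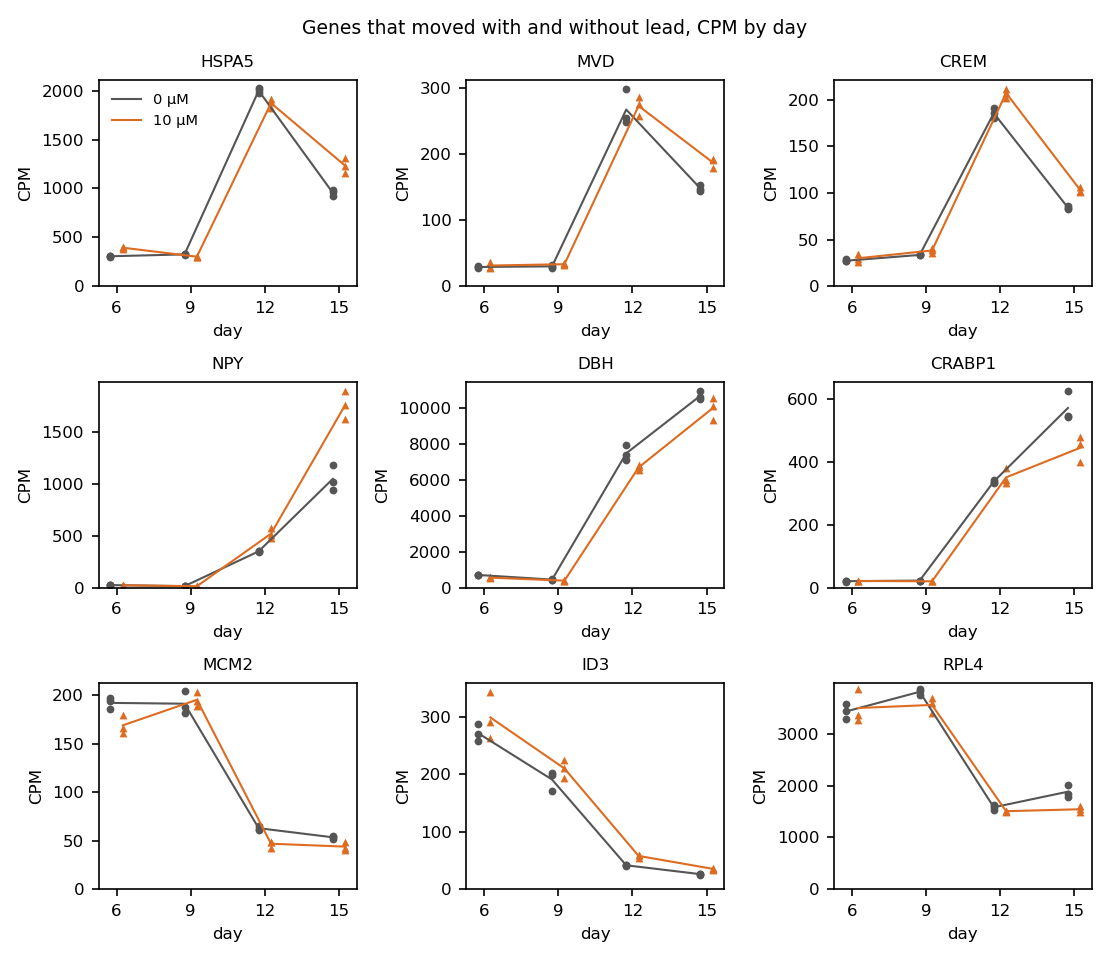
CPM by day for 9 genes that moved between day 9 and day 12, without Pb (grey circles) and with 10 µM Pb (orange triangles), 3 libraries per point in time and lines through the means. Each panel has its own linear axis from 0, and HSPA5, for example, goes from 301 to 1875 CPM with Pb and from 325 to 2002 CPM without.

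Genes of the cell cycle fell in the presence of Pb, and some fell further than without it. With Pb 29 of 30 DNA replication and S phase genes and 28 of 29 mitosis genes were called lower, beside 33.1% of all genes, with none higher, and their median log2 changes were -1.19 and -0.99. Without Pb 29 and 27 were called lower, with medians of -0.95 and -0.63, and the median differences of the steps were -0.27 and -0.35 beside -0.002 for all genes. At an unadjusted p under 0.05 the difference was negative for 18 replication and 23 mitosis genes and positive for none. Of all 15263 genes 1397 had such a p in either direction. Of the replication and mitosis genes limma called 3 and 2 in the difference, and edgeR 3 and 3. MCM2 (chromosome 3, 127598411 to 127622436), part of the helicase that opens DNA for copying, went from 194, 189 and 203 to 49.0, 42.6 and 48.8 CPM with Pb. Without Pb it went from 204, 187 and 182 to 62.3, 61.2 and 65.0 CPM. RRM2, the small subunit of ribonucleotide reductase, which makes deoxynucleotides, went from 164, 167 and 170.0 to 88.7, 90.3 and 89.2 CPM with Pb and from 171, 167 and 167 to 135, 129 and 139 CPM without. In RRM2 the day 9 libraries of both doses lay together, and at day 12 the 3 Pb libraries lay below all controls, with a difference of -0.57 ± 0.088 (adjusted p = 0.000103). The large subunit RRM1 had a difference of -0.41 ± 0.086 (adjusted p = 0.00673) and TPX2, a spindle assembly factor, one of -0.49 ± 0.092 (adjusted p = 0.0019). These calls, with that of RRM2, held in all 20 alternatives. TPX2 stood at 129, 131 and 134 CPM at day 9 and 59.3, 60.3 and 59.7 CPM at day 12 with Pb, and at 87.1, 86.9 and 85.0 CPM at day 12 without. The MCM2 difference (-0.45 ± 0.10, adjusted p = 0.0132) was not called when 1 of 4 libraries was left out, which were replicate 3 of both days at 0 µM and replicates 3 (day 9) and 2 (day 12) at 10 µM. That of KIF23, a kinesin of cytokinesis (-0.51 ± 0.11, adjusted p = 0.0114), was not called without replicate 3 of day 12 at 0 µM.

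MCM7, MCM5 and MCM3 of the same helicase changed by -1.66 ± 0.049, -1.82 ± 0.054 and -1.20 ± 0.053 with Pb. Of the mitosis list CENPF, a kinetochore protein, BIRC5, survivin, and FOXM1, a transcription factor of mitotic genes, changed by -1.02 ± 0.068, -1.01 ± 0.068 and -1.34 ± 0.091, and limma called none of these 6 in the difference. Outside the lists, 7 further genes of chromosome segregation, cohesion or cytokinesis were among the 37 with a more negative step (ESCO2, CEP55, KIF4A, CDCA8, TACC3, CDCA5 and RACGAP1), with differences from -0.58 to -0.38, and were picked after their values were seen. CCND1, cyclin D1, which drives entry into the cycle, fell from 1674, 1713 and 1775 to 965, 935 and 967 CPM with Pb, and its difference of 0.02 ± 0.063 had an interval of -0.11 to 0.14.

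The E2F sites TTTCCCGC and TTTGGCGC, of factors that switch on S phase genes, were found on either strand in the 250-base window of 13 of 26 replication list members with a promoter entry (50%) and of 2.36% of all genes. The cell cycle genes homology region TTTGAA, read by the DREAM complex in quiescent cells, was found for 13 of 23 mitosis list members (56.5%) and for 16.1% of all genes. Windows of MCM7 and E2F1 with an E2F match and of KIF23 and PLK1 with a cell cycle homology region are shown, with the match in capitals.
MCM7 (chr7:100101551-100101610, minus strand): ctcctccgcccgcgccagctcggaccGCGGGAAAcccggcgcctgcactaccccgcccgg
E2F1 (chr20:33686386-33686445, minus strand): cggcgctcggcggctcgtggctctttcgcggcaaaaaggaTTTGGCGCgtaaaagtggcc
KIF23 (chr15:69414267-69414326, plus strand): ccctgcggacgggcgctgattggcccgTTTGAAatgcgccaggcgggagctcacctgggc
PLK1 (chr16:23678829-23678888, plus strand): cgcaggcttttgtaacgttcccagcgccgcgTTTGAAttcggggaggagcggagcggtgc

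Members with an E2F match had a median log2 change of -1.36 with Pb (-2.33 to -0.67) and those without one of -1.17 (-2.04 to -0.21), with overlapping ranges. Members with the homology region had -1.04 and those without it -0.93.

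Transcripts of the ribosome and of the mitochondrial genome moved in opposite directions. Of 40 cytosolic ribosomal protein genes 39 were called lower with Pb and none higher (median -0.68, -0.80 without Pb), and their summed level was 60607 to 64533 CPM at day 9 and 38642 to 41954 CPM at day 12. RPL4 went from 3597, 3406 and 3689.9 to 1516, 1495 and 1512 CPM (log2 change -1.24 ± 0.051; -1.27 ± 0.051 without). RPL14, RPS4X and RPL15 changed by -1.09 ± 0.070, -1.001 ± 0.067 and -0.76 ± 0.055. These genes have many processed copies in the genome, so reads could be split between copies, and the same holds for actins, tubulins and metallothioneins. Of the 13 mitochondrially encoded genes 11 were called higher and none lower with Pb (median 0.57), and 6 without Pb (median 0.18). ND1, a subunit of respiratory complex I, stood at 2697, 3111 and 3138 CPM at day 9 and 4594, 3894 and 4176 CPM at day 12 with Pb. Without Pb it stood at 2562, 2512 and 2828 CPM at day 9 and 2691, 2624 and 2400.0 CPM at day 12 and was not called. The Pb libraries of day 12 lie above all the others, and the difference of the steps was 0.54 ± 0.12 (adjusted p = 0.017), with 0.44 ± 0.10 for ND5 of the same complex (adjusted p = 0.0232). The ND1 call was lost with no filter on low genes and when replicate 3 of either day at 0 µM, or replicate 1 of either day at 10 µM, was left out. ND5 lost its call with no filter and without any 1 of 6 libraries. At an unadjusted p under 0.05 the difference was positive for 10 of the 13 genes and negative for none. Of all 15263 genes 1397 had such a p in either direction. ND6, CYTB and ND4 changed by 0.91 ± 0.093, 0.78 ± 0.082 and 0.62 ± 0.079 with Pb. Histone transcripts fell: H2AC6 went from 15.9, 15.8 and 16.3 to 6.13, 5.57 and 5.35 CPM and the replication-dependent H4C3 from 292, 247 and 253 to 136, 124 and 166 CPM. In that list of histone and nuclear-retained transcripts 2 of 13 members kept were called higher and 7 lower, with the long noncoding RNA KCNQ1OT1 higher (1.38 ± 0.16).

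**Figure D3:**
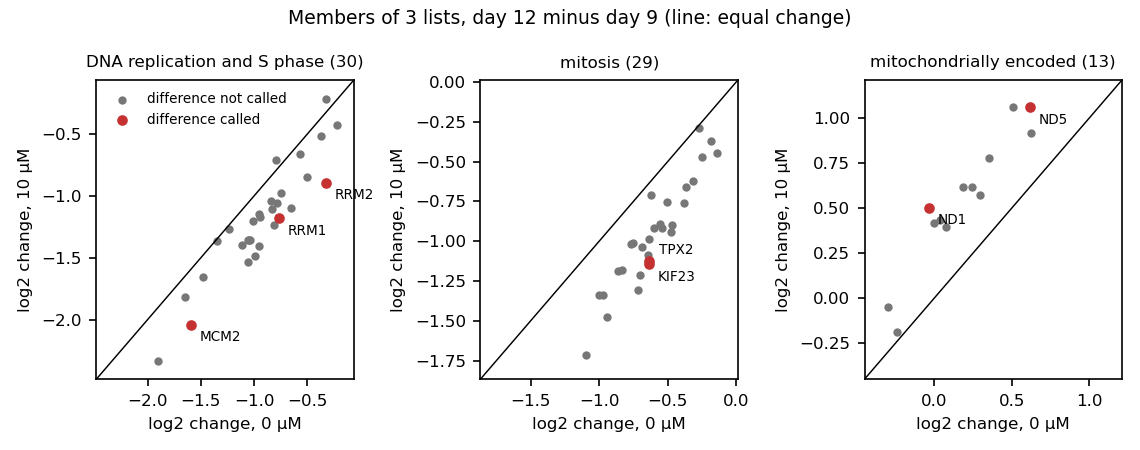
Log2 change from day 9 to day 12 without Pb (x axis) and with 10 µM Pb (y axis) for the members kept of 3 lists, with the line of equal change and the genes with a called difference in red. Most replication and mitosis genes lie below the line, with a median difference of -0.27 and -0.35, and all 13 mitochondrially encoded genes lie above it.

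Stress responses other than the unfolded protein response moved in part. In the ATF4 and amino acid list 9 of 20 members kept were called higher and 4 lower with Pb, and 7 were higher and 9 lower without. The difference of the steps was called for 4, all positive, and was positive at an unadjusted p under 0.05 for 11 and negative for none. Of all 15263 genes 1397 had such a p in either direction. ATF4 (chromosome 22, 39520559 to 39522686), the transcription factor of the integrated stress response, stood at 117, 123 and 121 CPM at day 9 and 125, 138 and 132 CPM at day 12 with Pb. Without Pb it fell from 126, 120.2 and 135 to 90.2, 87.6 and 92.3 CPM, so that the doses overlapped at day 9 and not at day 12. The difference of 0.62 ± 0.10 (adjusted p = 0.000348) was called in all 20 alternatives. CHAC1, which degrades glutathione, stood at 10.4, 12.0 and 12.1 CPM at day 9 and 12.3, 13.0 and 12.4 CPM at day 12 with Pb and went from 12.6, 13.1 and 11.3 to 5.95, 7.46 and 6.00 CPM without. The differences of CHAC1 (0.96 ± 0.23, adjusted p = 0.0273), of the mitochondrial folate enzyme MTHFD2 (0.40 ± 0.10, adjusted p = 0.0319) and of the mTOR inhibitor DDIT4 (0.62 ± 0.16, adjusted p = 0.0447) were positive. These calls were lost in 10, 9 and 13 of 20 alternatives, among them the omission of 8, 9 and 8 of the 12 libraries in turn. SLC3A2, a subunit of amino acid transporters, and the pseudokinase TRIB3 rose with Pb by 1.04 ± 0.064 and 0.93 ± 0.076, and PHGDH, the first enzyme of serine synthesis, fell (-0.68 ± 0.066).

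Of the p53 target list 3 of 22 members kept were called higher and 13 lower, with a median of -0.33 (3 and 9 and -0.22 after rescaling). GDF15, a secreted stress cytokine, rose from 409, 427 and 446 to 2404, 2437 and 2549 CPM with Pb and from 225, 194 and 199 to 1229, 1192 and 1144 CPM without. The log2 changes were 2.52 ± 0.11 and 2.53 ± 0.11 (interval of the difference -0.30 to 0.30). The Pb libraries were above the controls on both days. CDKN1A, the cell cycle inhibitor p21, rose from 205, 203 and 221 to 448, 438 and 456 CPM with Pb (1.09 ± 0.080), and CCNG1 and BTG2 fell (-1.06 ± 0.071 and -0.86 ± 0.10). Of the NRF2 list, genes of the oxidative stress response, 15 of 23 members kept were called higher and 2 lower. The quinone reductase NQO1 went from 33.3, 28.2 and 33.0 to 150.4, 144 and 151 CPM with Pb and from 17.2, 17.9 and 19.5 to 109, 95.2 and 109 CPM without. TKT of the pentose phosphate pathway and the peroxiredoxin PRDX1 changed by 1.18 ± 0.058 and 0.76 ± 0.059. No p53 or NRF2 target was called in the difference of the steps by limma or edgeR. An unadjusted p under 0.05 was seen in 3 p53 and 4 NRF2 targets, beside 1397 of 15263 genes.

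Metallothioneins bind divalent metals and are induced by them. MT2A stood at 9.53, 9.29 and 9.74 CPM at day 9 and 15.8, 16.5 and 19.4 CPM at day 12 with Pb. Without Pb it stood at 9.18, 7.97 and 11.7 CPM and then at 11.7, 10.7 and 9.44 CPM. It rose with Pb (0.79 ± 0.12, adjusted p = 4.6e-07), and the difference from the control step missed the threshold (0.65 ± 0.17, adjusted p = 0.0663). MT1X rose from 0.842, 0.666 and 1.13 to 2.91, 2.02 and 3.51 CPM, the zinc importer SLC39A14 rose (0.53 ± 0.16) and SLC39A10 fell (-0.61 ± 0.11). In that list 4 of 10 members kept were called higher and 1 lower (50% called, beside 55.1% of all genes). Without Pb the counts were 3 and 3, and none of the 10 was called in the difference of the steps by limma or edgeR. Of the heme and iron list, which holds the Pb-sensitive enzymes ALAD and FECH, 9 of 19 members kept were called higher and 3 lower (median -0.05, and 0.06 after rescaling). ALAS1, the first enzyme of heme synthesis, went from 39.9, 39.6 and 40.5 to 68.3, 68.0 and 73.8 CPM (0.79 ± 0.084). The biliverdin reductases BLVRB and BLVRA and the heme oxygenase HMOX2 rose by 1.29 ± 0.10, 0.86 ± 0.067 and 0.64 ± 0.085. Of the heat shock list 10 of 18 members kept were called higher and 2 lower (66.7% called). Among the rises were HSPB1 (0.66 ± 0.066), the co-chaperone BAG3 (1.44 ± 0.15), HSPA8 (0.24 ± 0.041) and HSPE1 (0.63 ± 0.10), which is mitochondrial and not cytosolic.

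Of the glycolysis and hypoxia list 17 of 27 members kept were called higher and 3 lower (median 0.32, 0.34 without Pb; 0.49 with Pb in edgeR). The glycolytic enzymes PFKP, ALDOC, ENO1 and PKM rose by 1.14 ± 0.052, 1.78 ± 0.087, 0.79 ± 0.043 and 0.66 ± 0.047 with Pb. NDRG1, a hypoxia-induced gene, went from 6.93, 7.99 and 10.2 to 12.9, 14.3 and 13.5 CPM with Pb and from 10.2, 10.3 and 10.6 to 8.88, 10.3 and 9.64 CPM without. The NDRG1 libraries of day 12 with Pb lie above all others, and the difference of 0.75 ± 0.15 (adjusted p = 0.00356) was lost in the fit of the 12 libraries alone. In the MAP kinase and growth factor feedback list 6 of 16 were higher and 6 lower (7 and 6 after rescaling). The phosphatases DUSP4 (0.86 ± 0.052) and DUSP6 (0.78 ± 0.047) rose and DUSP10 fell (-1.92 ± 0.11), against 0.86 ± 0.052, 0.84 ± 0.047 and -2.09 ± 0.11 without Pb.

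**Figure D4:**
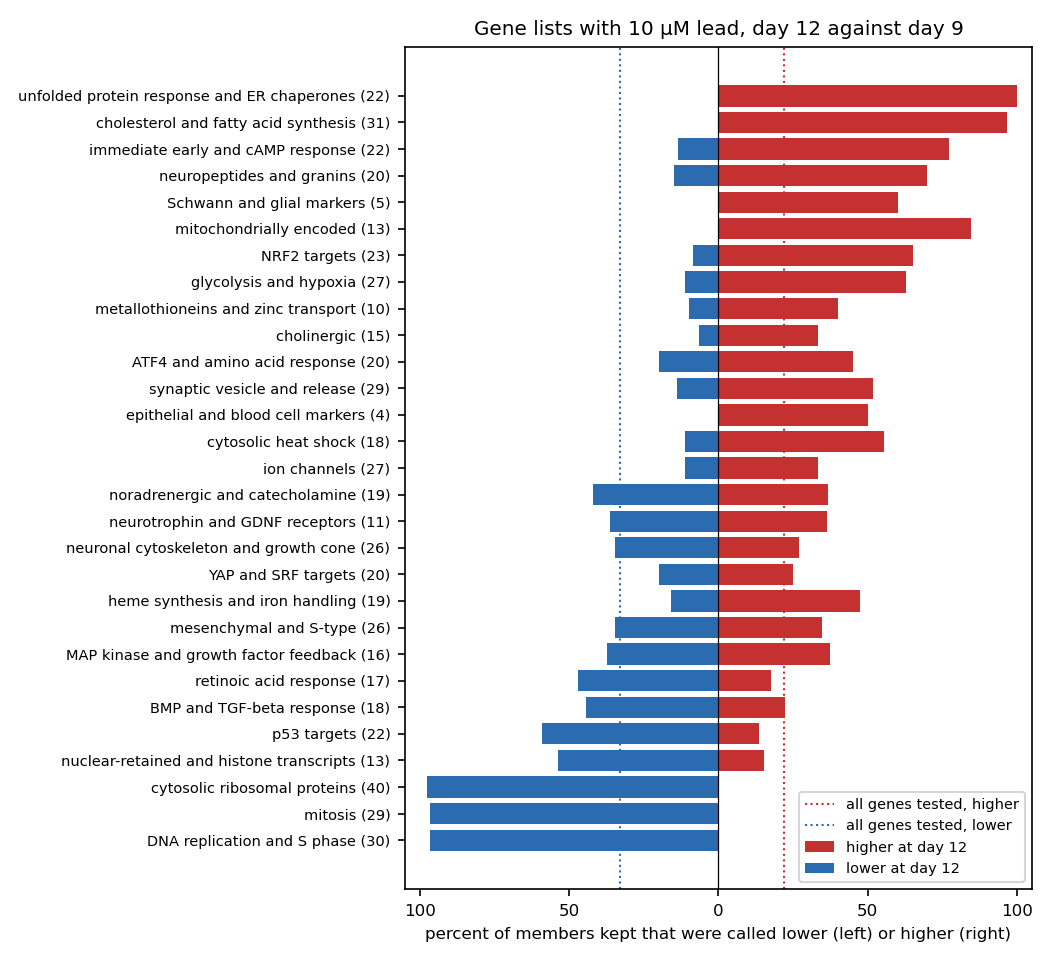
Share of the members kept that were called higher (red, right) or lower (blue, left) at day 12 with 10 µM Pb, for 29 gene lists ordered by their median log2 change, with the number kept in brackets and dotted lines at the share of all genes called higher (21.9%) and lower (33.1%). The unfolded protein response and lipid synthesis stand at the top and the ribosomal, mitosis and replication lists at the bottom.

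The 101 genes whose step differed hold several genes of the S-type state and of the actin-linked YAP and SRF pathways. Of the mesenchymal and S-type list 4 of 26 members had a more positive and 2 a more negative step with Pb (23.1%), and of the YAP and SRF list 4 and 1 of 20 (25.0%), beside 0.662% of all genes. The directions within each list were mixed. Both lists were chosen with earlier results of these data known, so these shares are a description and no independent support. In edgeR the counts were 3 and 1, and 3 and 0. In the 10 µM step itself 9 members of the first list were called higher and 9 lower (10 and 7 after rescaling), and 5 and 4 of the second (7 and 2). The shares called on the CPM scale were 69.2% and 45%, beside 55.1% of all genes. ANXA2 (chromosome 15, 60347151 to 60397986), a calcium-dependent membrane-binding protein, stood at 25.4, 32.4 and 33.9 CPM at day 9 with Pb and at 90.4, 87.3 and 93.0 CPM without. At day 12 it had reached 162, 166 and 163 CPM with Pb and 179.7, 165 and 169 CPM without, so the doses were apart at day 9 and overlapped at day 12. Its log2 change was 2.39 ± 0.10 with Pb and 0.91 ± 0.10 without, a difference of 1.48 ± 0.14 (adjusted p = 1.88e-09). CD44, the hyaluronan receptor, also began lower, from 1.80, 4.14 and 4.40 to 19.9, 20.7 and 23.5 CPM with Pb against 11.8, 9.72 and 9.27 to 19.4, 20.6 and 24.9 CPM (difference 1.38 ± 0.24, adjusted p = 0.000421). ANXA2 and CD44 thus began below the controls and ended among them. NIBAN1, a stress-induced regulator of translation, ended above them, going from 1.61, 2.29 and 1.73 to 8.49, 10.1 and 8.72 CPM with Pb and from 4.86, 4.64 and 6.62 to 5.06, 5.33 and 7.32 CPM without (difference 1.70 ± 0.26, adjusted p = 8.37e-05). The intermediate filament VIM began lower with Pb and also ended lower, from 20.4, 30.1 and 29.3 to 73.6, 69.0 and 74.5 CPM against 66.3, 58.9 and 67.3 to 123, 121 and 122 CPM. Its called difference (0.51 ± 0.13, adjusted p = 0.0489) was lost in 15 of 20 alternatives, 9 of which each leave out 1 library, and was 0.34 without replicate 1 of day 9 at 10 µM. ARHGDIB, a regulator of small GTPases, and PHLDA2, an imprinted growth regulator, both named after their values were seen, also rose more with Pb. Their means were 1.5 and 0.57 CPM at day 9 with Pb against 6.74 and 3.12 CPM without, and 31.0 and 20.7 against 39.6 and 20.7 CPM at day 12.

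A second set of genes fell in the controls and was already low with Pb at day 9. CCN1, a matricellular protein and a standard YAP target, stood at 1.30, 2.49 and 2.30 CPM at day 9 and 2.83, 2.47 and 2.08 CPM at day 12 with Pb. In the controls it fell from 11.7, 12.3 and 10.5 to 4.21, 3.42 and 3.36 CPM, a difference of the steps of 1.63 ± 0.29 (adjusted p = 0.000984). CRIM1, a BMP-binding membrane protein, stood at 0.612, 1.48 and 1.90 CPM at day 9 and 0.910, 0.789 and 1.06 CPM at day 12 with Pb. It fell from 7.02, 8.52 and 6.86 to 1.31, 1.94 and 1.08 CPM without (adjusted p of the difference = 0.000303). The tropomyosin TPM1 stood at 42.6, 40.9 and 43.8 CPM at day 9 and 46.9, 43.6 and 43.4 CPM at day 12 with Pb. It fell from 72.2, 69.5 and 76.2 to 44.5, 48.1 and 52.1 CPM without (0.65 ± 0.11, adjusted p = 0.000348). In these 3 genes the doses were apart at day 9, and at day 12 they were closer or overlapped. CCN2, a relative of CCN1, had 1.19, 1.74 and 0.800 CPM at day 9 with Pb and no read at day 12, which is at least 8.39-fold lower. Without Pb it had 3.47, 5.32 and 5.24 CPM at day 9 and 0.270, 0 and 0.0800 CPM at day 12. CYP24A1, which degrades vitamin D, was likewise lower at day 9 with Pb (1.38, 2.43 and 2.10 against 9.63, 10.1 and 8.49 CPM) and near 0 at day 12 at both doses. For both, the fall was smaller with Pb on the log2(CPM + 1) scale (1.19 ± 0.21 and 1.66 ± 0.20) and larger in edgeR, with differences of -2.93 and -1.12 that were not called (adjusted p = 0.611 and 0.826). The direction thus depends on the scale used. ACTG1, a cytoplasmic actin, and ACTB rose by 0.63 ± 0.052 and 0.72 ± 0.056 with Pb and by 0.93 ± 0.052 and 0.97 ± 0.056 without. The ACTG1 difference was called (adjusted p = 0.032) and was lost in 12 of 20 alternatives, 8 of them the omission of 1 library. AMOTL2, an angiomotin of the YAP pathway, fell at both doses (-1.43 ± 0.11 with Pb).

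A further group was lower with Pb at day 12. COL3A1 (chromosome 2, 188974373 to 189012746), a fibrillar collagen, fell from 7.0, 9.96 and 8.47 to 2.37, 1.97 and 2.26 CPM with Pb. Without Pb it stood at 39.6, 45.1 and 39.3 CPM at day 9 and at 46.0, 45.8 and 46.7 CPM at day 12, so the doses were apart on both days and further apart at day 12. The difference of the steps was -1.71 ± 0.32 (adjusted p = 0.00143). TWIST2, a mesenchymal transcription factor, rose with Pb from 0.0765, 0.0579 and 0.20 to 1.23, 1.78 and 0.649 CPM. Without Pb it rose from 1.11, 0.324 and 1.32 to 9.31, 11.8 and 11.0 CPM. With Pb it was at a few reads at day 9, and its difference (-1.68 ± 0.27, adjusted p = 0.000286) was not called with a pseudocount of 0.25 (-1.38, adjusted p = 0.269) or in edgeR (-0.23, adjusted p = 0.973). On the ratio of CPM means its rise was 10.9-fold with Pb and 11.6-fold without, so a smaller rise with Pb is not shown for TWIST2. Its 3 libraries with Pb lay below the 3 without at both days. IGFBP5, which binds insulin-like growth factors, fell from 29.5, 29.8 and 29.9 to 11.5, 9.17 and 12.1 CPM with Pb. Without Pb it stood at 29.6, 22.9 and 26 CPM at day 9 and 21.6, 21.7 and 22.3 CPM at day 12 (difference -1.13 ± 0.20, adjusted p = 0.000527). The proteoglycan VCAN fell from 82.1, 84.5 and 87.0 to 31.1, 29.1 and 35.1 CPM with Pb and from 83.2, 77.5 and 83.0 to 49.9, 46.0 and 51.9 CPM without (-0.68 ± 0.12, adjusted p = 0.000421). IGFBP5 and VCAN overlapped between doses at day 9 and were apart at day 12. S1PR3, a sphingosine-1-phosphate receptor, and MRAP2, an accessory protein of melanocortin receptors, rose without Pb by 1.24 and 1.09 and changed with Pb by 0.25 (not called) and 0.40, differences of -0.99 ± 0.21 and -0.69 ± 0.13 (adjusted p = 0.00617 and 0.00143). LGALS1, galectin-1 of the same S-type list, rose from 169, 167 and 176 to 827, 794 and 972 CPM with Pb, with an interval of the difference of -0.31 to 0.19. TGFB2 (1.10 ± 0.25, adjusted p = 0.0137) and the potassium channel KCNMA1 (0.91 ± 0.23, adjusted p = 0.0456) had positive differences from lower day 9 levels with Pb, 0.256 against 3.73 and 2.63 against 6.54 CPM. Their calls were lost in 6 of 19 and 12 of 20 alternatives, among them the omission of 3 and 8 single libraries, and the TGFB2 difference was 0.61 in edgeR.

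**Figure D5:**
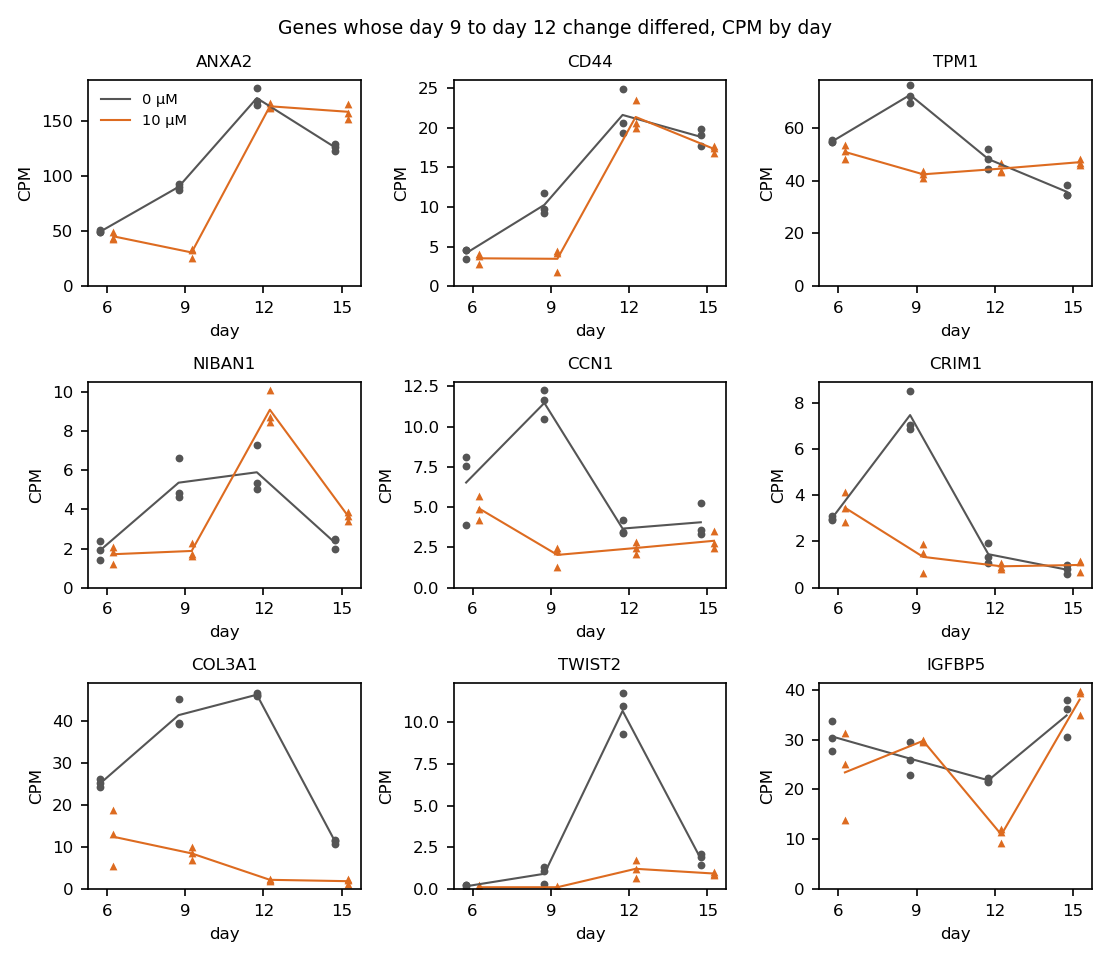
CPM by day for 9 genes with a called difference of the steps, without Pb (grey circles) and with 10 µM Pb (orange triangles), 3 libraries per point in time, lines through the means and a linear axis from 0 in each panel. ANXA2 and CD44 start apart at day 9 and meet at day 12, CCN1 and CRIM1 peak at day 9 in the controls alone, and COL3A1 and TWIST2 are lower with Pb at day 12.

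The 101 genes were described by where the doses stood apart, with 10 against 0 µM compared within each day in contrasts added after the data were seen (215 genes called at day 9, 1.41%, and 819 at day 12, 5.37%). Of the 64 genes with a more positive step, 28 were called lower with Pb at day 9 and none higher, and at day 12 34 were called higher and 5 lower. Of the 37 with a more negative step, 4 were called higher and 2 lower at day 9, and at day 12 34 were called lower and 1 higher. These counts share their libraries with the difference and are a description of it. The genes were also sorted by direction of the 2 steps on the log2(CPM + 1) scale, which understates the change of low genes. On it 16 genes fell at both doses and by more with Pb, and 17 fell at both and by less. A further 18 rose at both and by more, and 11 rose at both and by less. CCN2 and CYP24A1 are counted among the 17 and TWIST2 among the 11, though a smaller change with Pb is not shown for them on other scales. The sorting was not repeated on another scale. A change called without Pb alone was seen for 19 falls and 4 rises, and one called with Pb alone for 7 rises and 4 falls. The last 5 were called in opposite directions, and they are named after their values were seen. FUT8 and EXT2, 2 enzymes that build glycans, fell with Pb (-0.21 and -0.20) and rose without. The chromatin protein ANKRD11 (0.17 with Pb, -0.28 without) and 2 genes known only by a locus number did the reverse. These directions are on the CPM scale, and single steps this small can lose their call after rescaling, as GATA3 did with Pb. Of the 101 genes 13 were below 5 CPM in all 4 groups, 76 were also called in edgeR, and 38 were called in every alternative in which they were tested.

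The intermediate doses were not part of the test, and their means are set beside the 2 ends for the genes that differed most. At day 9 ANXA2 stood at 90.2, 103, 59.8 and 30.6 CPM at 0, 0.16, 1.26 and 10 µM, and at day 12 at 171, 154, 162 and 164 CPM. CD44 stood at 10.3, 11.6, 6.57 and 3.45 CPM at day 9 and at 21.6, 20.6, 19.6 and 21.4 CPM at day 12. CRIM1 stood at 7.47, 6.74, 3.69 and 1.33 CPM at day 9 in the same order of doses. In these genes the means at 1.26 µM lay between those at 0 and 10 µM at day 9. COL3A1 stood at 41.3, 37.6, 17.0 and 8.48 CPM at day 9 and at 46.2, 17.5, 14.7 and 2.20 CPM at day 12, and TWIST2 at 10.7, 4.44, 4.13 and 1.22 CPM at day 12. RRM2 stood at 135, 126, 119 and 89.4 CPM at day 12 and ATF4 at 90.0, 97.6, 91.5 and 132 CPM. The day 12 means of COL3A1 and TWIST2 were below the control mean at 0.16 µM as well, and those of ATF4 at 0.16 and 1.26 µM were nearer the control than 10 µM. These steps in dose were not tested. Beyond day 12, at day 15, ANXA2 stood at 158, 152 and 166 CPM with 10 µM Pb and 127, 123 and 129 CPM without. IGFBP5 stood there at 34.9, 39.4 and 39.9 CPM with Pb and 37.9, 36.2 and 30.5 CPM without. COL3A1 stood at 1.20, 2.38 and 2.05 CPM with Pb and 10.8, 11.4 and 11.8 CPM without. At day 15 ANXA2 was above the controls, IGFBP5 overlapped them and COL3A1 stayed below them.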

How the data were processed

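RNA of 60 dishes was sequenced, 3 for each of 5 days and 4 Pb doses, and replicates are the dishes as numbered in the labels. The authors deposited read counts scaled per library (CPM) for 37334 genes, each library summing to 1000000, of which 8794 genes had no read in any library. Per the submitters' processing notes FastQC, MultiQC, STAR, featureCounts and GRCh38 were used, with no version given there, and strand settings are not given in the sources used here. Libraries of days 6 to 15 were pooled apart from those of day 18, per the labels' protocols, so both days of each step share a pool. Whole reads were recovered from the CPM: 99.9998% of values lay within 0.01 of a whole number of reads, and the reads gave the depths.

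The main test was limma 3.58.1 (R 4.3.3) on log2(CPM + 1) over all 60 libraries, with 1 mean per day and dose, an intensity trend, 40 residual degrees of freedom and two-sided p-values adjusted by Benjamini-Hochberg over the 15263 genes that reached 1 CPM in 3 or more libraries, at a threshold of 0.05. A fold change on this scale understates the change of low genes. Values are means or single libraries in CPM, ± is the SE of the log2 change, and intervals are 95% intervals of the difference from the same fit. edgeR 4.0.16 (quasi-likelihood test, TMM) on the recovered reads called 8165, 7909 and 89 genes in the step with Pb, the step without and their difference, where limma called 8403, 8303 and 101. Other alternatives were a pseudocount of 0.25, no filter, a filter at 5 CPM, a median-ratio rescaling, fits of the compared groups alone or without day 18, the replicate number as a block, and leaving out each library. The fit was run on simulated data before use, with the same spread set for all genes and changes only in genes of at least 5 CPM. That run does not cover low or more variable genes.

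Genes were named by rule: the 10 largest rises and falls with Pb among called genes with at least 5 CPM in 1 group and no overlap of libraries, the 6 largest differences of the steps each way among called genes with at least 5 CPM in 1 group, up to 4 members of each of 29 lists by p in the step with Pb and up to 3 by p in the difference, and the identity markers. Genes without a symbol of their own were counted and passed over, and some other genes that the rule picks are not reported here and are left out of the counts of named genes. The members and lists were chosen with earlier results of these data known, and a member that failed the filter on low values is in no count. "At least" folds use 3 reads per library as the floor and cover counting error only. Motifs were searched in the 250 bases before the RefSeq start of 27305 genes (GRCh38.p14), and windows of 60 bases are printed. Scripts used Python 3.11.15, pandas 2.3.3 and matplotlib 3.10.9.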

Additional observations from a re-analysis of the deposited data

Results flagged for a closer look

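The change from day 9 to day 12 differed between 10 and 0 µM Pb in 101 genes by limma's test of the difference itself, and 35 of the genes named by rule are among them. Values in brackets are the change with Pb minus the change without, on the log2(CPM + 1) scale. Among genes of the S-type state, the matrix and the actin-linked pathways these were ANXA2 (1.48), CD44 (1.38), VIM (0.512), CCN1 (1.63), CCN2 (1.19), CRIM1 (1.56), TPM1 (0.652) and ACTG1 (-0.3), with COL3A1 (-1.71), TWIST2 (-1.68), VCAN (-0.677), TGM2 (-0.645) and TGFB2 (1.1). Among genes of growth factor, receptor and peptide signalling they were IGFBP5 (-1.13), S1PR3 (-0.99), MRAP2 (-0.685), NPY (0.587) and TAC1 (1.14). The potassium channel KCNMA1 (0.912) and the protease inhibitor TFPI2 (0.823) were also among them. Genes of stress responses and metabolism were ATF4 (0.623), CHAC1 (0.96), MTHFD2 (0.396), DDIT4 (0.616), NIBAN1 (1.7), NDRG1 (0.75), CYP24A1 (1.66) and FOSL1 (1.05). Cell cycle genes were MCM2 (-0.451), RRM2 (-0.571), RRM1 (-0.412), TPX2 (-0.486) and KIF23 (-0.509), and the mitochondrially encoded genes were ND5 (0.441) and ND1 (0.536). For CCN2 and CYP24A1 the sign depends on the scale used, and for TWIST2 the difference in edgeR was -0.23 and not called. No other rule for a closer look could be applied, since each group has 3 dishes.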

How the results depend on the processing

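The number of genes changed with Pb ranged from 7671 to 8881 over the alternatives that leave out no single library and from 7620 to 7814 when 1 library was left out, beside 8403. Without Pb the numbers were 7517 to 8543 and 7561 to 7842, beside 8303. After rescaling the share of rises with Pb was 52.4%, and 50.2% in edgeR, beside 39.8%. The difference of the steps was called for 101 genes, for 89 to 106 under the first kind of alternative and for 67 (without replicate 1 of day 9 at 10 µM) to 106 without 1 library. It was positive for 50.5% of the called genes when the 12 libraries were fitted alone, beside 63.4%, and 60 of the 101 genes were called there. Pearson's r between the steps was 0.930, and 0.910 with a pseudocount of 0.25, 0.918 with no filter, 0.947 with the filter at 5 CPM and 0.929 after rescaling. The differences of CYP24A1 (-1.12) and CCN2 (-2.93) reversed in edgeR, and the cause was not tested. Of the genes named, 142 of 145 calls in the step with Pb held in every alternative run for them, and 17 of 35 in the difference. The median change with Pb changed sign between CPM and both rescaling and edgeR for the MAP kinase, YAP and SRF, heme, mesenchymal and cytoskeleton lists, to 0.00, 0.05, 0.06, 0.02 and 0.09 after rescaling.

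With the replicate number as a block 8447, 8331 and 98 genes were called. Deviations of same-numbered dishes correlated at 0.0396, 0.364 and 0.407 with Pb and at 0.310, 0.0450 and 0.0962 without, so the numbers were not taken to pair the dishes. At these depths a gene with no read in a library with Pb lies below 0.0594 to 0.148 CPM, and the median SE of a difference, 0.172, limits what 3 dishes can show.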
